A study of Homo sapiens with 15 samples.

Results

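Transcripts of 9 polyamine metabolism genes were followed in H1299 cells across media that differed in glucose, glutamine and ammonium. H1299 is an established cell line derived from a lymph node metastasis of a human lung carcinoma of the non-small cell kind. The genes were given as a list of symbols by pathway, chosen with earlier results of these data known: ODC1, AMD1, SRM and SMS of synthesis, SAT1 and SMOX of catabolism, and OAZ1, OAZ2 and AZIN1 of antizyme control. Each symbol matched 1 Ensembl gene ID of GENCODE 29 among the 58395 genes of the deposited table, and all 9 passed the filter on low counts, as did 16889 genes in all. All cells were grown in RPMI 1640 with serum, washed, and then kept for 12 h in serum-free RPMI 1640. One medium held neither glucose nor glutamine. The others held 5 mM glucose, 4 mM glutamine, both nutrients at those doses, or glucose at 5 mM together with ammonium chloride (NH4Cl) at 4 mM and no glutamine.

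The 15 libraries, 3 for every one of the 5 media, were made from poly(A) RNA and held totals of 14914127 to 19938691 counts. Since the labels speak of triplicate cells without naming a day or batch, the spread behind each p-value may be technical and is that of these samples only. The line's epithelial and mesenchymal markers KRT8, KRT18 and VIM were at 154 to 2680 CPM. Of 10 markers of leukocytes, endothelium and fibroblasts none exceeded 31 counts in a library, and all but COL1A1 and DCN were at 0 in at least 1 library. The summed fibroblast markers were at 1.91 to 2.3 CPM with both nutrients and at 0.487 to 1.59 CPM elsewhere, and their part in the results was not tested. The medium with neither nutrient stood apart in composition, with TMM scaling factors of 0.793 in its libraries against 1.006 to 1.086 in the others.

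Putrescine, spermidine and spermine are small polycations that bind nucleic acids and are needed for growth and translation. ODC1, ornithine decarboxylase, makes putrescine from ornithine, a product of arginine. AMD1, S-adenosylmethionine decarboxylase, makes the aminopropyl donor that SRM, spermidine synthase, and SMS, spermine synthase, add in turn. SAT1 acetylates spermidine and spermine for export or oxidation, and SMOX oxidises spermine back to spermidine. The antizymes OAZ1 and OAZ2 bind ODC1 protein, send it to the proteasome and restrain polyamine uptake, and AZIN1, a relative of ODC1 without its activity, takes antizyme away from ODC1. Much of this control is known to act on translation and protein turnover, which RNA counts do not measure.

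ODC1 is a textbook target of MYC and MAX, which bind the E-box CACGTG, so the E-boxes near the members' starts are shown. RefSeq (GRCh38.p14) gave 10 windows, from 250 bases before a start to 50 after it, for 7 of the 9 genes in the table used here, and none for SMOX and AZIN1. The E-box was found in 2 of these genes: the window of a second ODC1 start held 2, and that of SRM held 1. Of 35114 such windows of all genes, 7.26% held the motif. Each line gives 30 bases of the gene's strand with the E-box in capitals. The first is at chr2:10448024-10448053 on the minus strand, with the E-box beginning 29 bases before that start. The second is at chr2:10447990-10448019 on the minus strand, beginning at base 6 of the transcript. The third is at chr1:11060200-11060229 on the minus strand, beginning 199 bases before the start of SRM.
ODC1 E-box 1: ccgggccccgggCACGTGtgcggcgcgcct
ODC1 E-box 2: ggcctgcggagaCACGTGgtcgccgagcgg
SRM E-box 1: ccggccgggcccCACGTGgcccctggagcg
These palindromic hexamers read the same on both strands. The amino acid response element TGATGNAAN and the heat shock element GAANNTTC matched on neither strand in the 10 windows (3.61% and 6.77% of all windows held them). The antioxidant response element TGACNNNGC matched once, in the window of the first ODC1 start (13.3% of all windows).

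Levels are given first, in CPM (counts scaled to the library's total after TMM adjustment). The place of the medium with neither nutrient in each order holds for this scaling, and the differences from it under library totals alone are given with that comparison. Of the synthesis genes, ODC1 was highest with neither nutrient and lowest with both. ODC1 (ENSG00000115758, GRCh38 chromosome 2, 10439968 to 10448504) was at 719.6, 717.5 and 721.2 CPM with neither nutrient and at 510.1, 532.7 and 536.2 CPM with glucose. It was at 514.9, 521.6 and 509 CPM with glutamine. With glucose and NH4Cl it was at 424.7, 414.5 and 417.9 CPM, and with both nutrients at 335.5, 316.7 and 315.2 CPM. The libraries of the media with glucose alone and with glutamine alone overlapped and those media did not differ by the test (log2 0.03, edgeR adjusted p = 0.187), while every other step in this order was called. Under library totals alone (-0.12 for glutamine against glucose, adjusted p = 1.1e-08) and without glucose replicate 1 (-0.05, adjusted p = 0.0382) that pair did differ. AMD1 (ENSG00000123505, chromosome 6, 110874770 to 110895713) had another order, with its highest level where ODC1 had its lowest. It was at 142.3, 140.6 and 140.4 CPM with both nutrients, and in the other 12 libraries between 73.72 and 91.8 CPM, so that the medium with both stood clear of every other library. Below it, glutamine (87.3 ± 5.53 CPM, SD, n = 3) and neither nutrient (85.7 ± 2.22 CPM) did not differ by the test, nor did glucose with NH4Cl (76.6 ± 2.1 CPM) and glucose alone (74.8 ± 1 CPM).

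SRM (ENSG00000116649, chromosome 1, 11054584 to 11060024) ranged most widely of the 9 genes, 4.00-fold between its extreme media with TMM scaling. It was at 216.1, 230.4 and 224.3 CPM with neither nutrient, at 140.8, 143.9 and 140.5 CPM with glutamine and at 102.7, 103.3 and 95.28 CPM with both. With glucose it was at 55.2, 61.41 and 56.73 CPM, and with glucose and NH4Cl at 53.95, 55.87 and 57.8 CPM. Both media without glucose thus had more SRM RNA than any medium with it, and the lowest pair overlapped and did not differ by the test. SMS (ENSG00000102172, chromosome X, 21940573 to 21994835) was at 811.2 to 824.6 CPM with neither nutrient and at 474.4 to 483.8 CPM with glutamine. In the 3 media with glucose it lay between 369.8 and 417 CPM, and there both nutrients and glucose alone did not differ by the test. SMS therefore varied little once glucose was present, and like SRM it was highest with neither nutrient.

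Both catabolic genes were lowest with both nutrients and had their highest mean with glutamine alone. SAT1 (ENSG00000130066, chromosome X, 23783173 to 23786226) was at 34.73, 36.42 and 36.03 CPM with both nutrients, where every other library had at least 68.21 CPM. It was at 93.75, 93.84 and 92.91 CPM with glutamine alone, above every other library. With neither nutrient, glucose alone and glucose with NH4Cl it lay between 68.21 and 79.87 CPM. SMOX (ENSG00000088826, chromosome 20, 4120980 to 4187747) was at 13.81, 16.33 and 15.43 CPM with both nutrients and at 23.55, 28.19 and 25.63 CPM with neither. With glucose it was at 35.48, 31.12 and 32.68 CPM, with glucose and NH4Cl at 28.54, 29.81 and 33.01 CPM, and with glutamine at 35.85, 37.54 and 36.86 CPM. The step of SMOX from glucose to glutamine (0.15, adjusted p = 0.0118) did not pass under library totals alone (0.06, adjusted p = 0.357), by DESeq2 (adjusted p = 0.0566), against a 1.2-fold change, or without replicate 2 of glucose (adjusted p = 0.102) or of glutamine (adjusted p = 0.0549). No library of the medium with both nutrients overlapped any other library for either gene. How many of all genes stand apart in this way was not counted, nor for AMD1 above or for SAT1 with glutamine alone. Nor was it counted for the split of SRM by glucose above or for that of AZIN1 by glutamine below. Between the media with both nutrients and with glucose alone, 69.9% of all genes did not overlap.

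The antizyme genes each followed a different order. OAZ1 (ENSG00000104904, chromosome 19, 2269509 to 2273490) was at 602 to 629.6 CPM with neither nutrient and between 368.2 and 420.2 CPM in the other 12 libraries, the flattest pattern among the abundant members. OAZ2 (ENSG00000180304, chromosome 15, 64687573 to 64703281) was lowest with glutamine alone, at 51.43, 50.96 and 50.93 CPM, and highest with neither nutrient (76.73 to 79.11 CPM) and both nutrients (72.75 to 74.6 CPM), which did not differ by the test although their libraries did not overlap (log2 -0.07, edgeR adjusted p = 0.0744). AZIN1 (ENSG00000155096, chromosome 8, 102826357 to 102893864) was at 826.7, 812.1 and 801.9 CPM with neither nutrient and at 582.2, 574.6 and 579 CPM with glucose. With glucose and NH4Cl it was at 569.5, 575.3 and 545.3 CPM, with both nutrients at 453.8, 447.1 and 461.7 CPM, and with glutamine at 355.5, 348.6 and 350 CPM. Both media with glutamine thus had less AZIN1 RNA than any medium without it. Glucose with and without NH4Cl did not differ by the test for AZIN1 (adjusted p = 0.147).

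**Figure D1:**
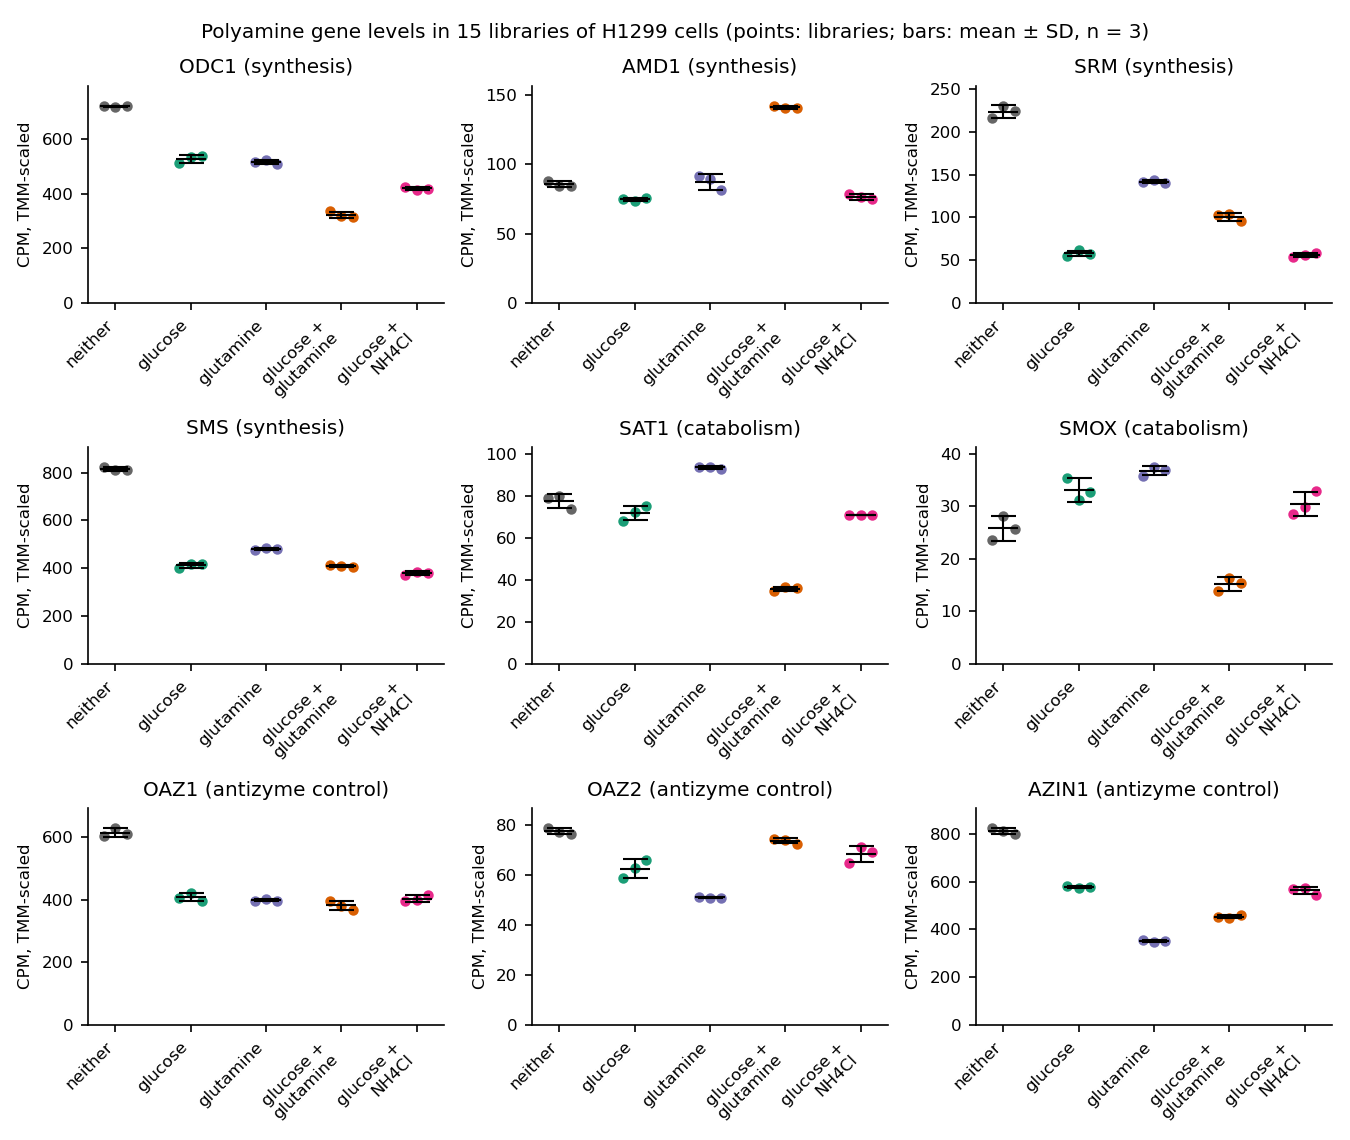
Levels of the 9 polyamine genes in CPM (vertical axes, from 0) in each of the 15 libraries by medium (horizontal axes), with points for libraries and bars for the mean ± SD of 3. With both nutrients SAT1 and SMOX are at their lowest and AMD1 is at its highest, and with TMM scaling ODC1, SRM, SMS, OAZ1, OAZ2 and AZIN1 are at their highest with neither nutrient. Under library totals alone OAZ2 is higher with glucose and with both nutrients than with neither.

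Levels of different genes were compared per kilobase of exon, as mean CPM divided by the length of the gene's merged exons. With both nutrients SMS stood at 189.5 CPM per kilobase, OAZ1 at 111.1, ODC1 at 108.6, AZIN1 at 70.68, SRM at 52.92, AMD1 at 20.08, SAT1 at 14.3, OAZ2 at 9.63 and SMOX at 5.16. With neither nutrient SMS (377.6 CPM per kilobase) and ODC1 (242.4) led. The catabolic genes were thus low next to most synthesis genes in both of these media, and OAZ1 was far above OAZ2. The merged exons are long for AMD1 (7027 bases), OAZ2 (7671 bases) and AZIN1 (6426 bases), which lowers their values where part of that length is not transcribed. The same may hold for the other members, and the transcribed part was not measured, so the order between genes is rough. Between its lowest and highest medium, ODC1 ranged 2.23-fold, AMD1 1.89-fold, SMS 2.16-fold, SAT1 2.62-fold, SMOX 2.42-fold, OAZ1 1.61-fold, OAZ2 1.52-fold and AZIN1 2.32-fold. Over the 11281 genes that averaged 5 CPM or more the median range was 1.74-fold, and SRM had a wider range than 95.9% of them.

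The first comparison was that of both nutrients with glucose alone, which gives the change with glutamine where glucose is present. AMD1 and SRM rose, ODC1 fell, and SAT1 and SMOX, the catabolic genes, fell most. AMD1 rose to 141 ± 1.02 CPM from 74.8 ± 1 CPM, by 0.92 ± 0.033 in log2 (SE of the fit). SRM rose from 57.8 ± 3.24 to 100.4 ± 4.47 CPM (0.80 ± 0.036), while ODC1 fell from 526 ± 14.2 to 323 ± 11.3 CPM (-0.71 ± 0.021). SMS, unlike SRM, did not pass (-0.01, 95% interval -0.05 to 0.03, adjusted p = 0.733). SAT1 fell from 71.9 ± 3.39 to 35.7 ± 0.882 CPM (-1.01 ± 0.042) and SMOX from 33.1 ± 2.21 to 15.2 ± 1.27 CPM (-1.13 ± 0.066). Of the antizyme genes AZIN1 fell by 0.35 and OAZ1 by 0.10 on the log2 scale, and OAZ2 rose by 0.24. The changes of OAZ1 and OAZ2 were not called against a 1.2-fold change. By edgeR's quasi-likelihood test with Benjamini-Hochberg adjustment 3 of the 9 genes were higher and 5 lower (median log2 -0.10), and their libraries did not overlap for 8. Over all genes 67.9% were called (34.2% higher, 33.7% lower; median 0.01) and 69.9% did not overlap, so calls were common. A change of at least 2-fold, seen here in SAT1 and SMOX, was called for 12.2% of all genes.

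Ammonium, added to glucose without glutamine, changed ODC1 and, by less, SMS and OAZ2, and neither catabolic gene passed. ODC1 fell from 526 ± 14.2 to 419 ± 5.16 CPM (-0.33 ± 0.021, adjusted p = 2.51e-33 by edgeR), with no overlap between the libraries, as for SMS (39.9% of all genes did not overlap). SMS fell slightly, from 412 ± 8.72 to 379 ± 7.82 CPM (-0.12 ± 0.021), and OAZ2 rose from 62.7 ± 3.72 to 68.5 ± 3.17 CPM (0.13 ± 0.039) with overlapping libraries. Neither of these was called against a 1.2-fold change. The call of OAZ2 was lost without glucose replicate 1 (0.08, adjusted p = 0.151) and without NH4Cl replicate 2 (0.10, adjusted p = 0.0872). AMD1 (0.03, 95% interval -0.04 to 0.11), SRM (-0.05, -0.13 to 0.03), SAT1 (-0.02, -0.09 to 0.06), OAZ1 (-0.02, -0.06 to 0.03) and AZIN1 (-0.04, -0.08 to 0.00) did not pass. SMOX had a log2 change of -0.12 (-0.24 to -0.01, adjusted p = 0.102), which passed without glucose replicate 2 (-0.16, adjusted p = 0.0408) and without NH4Cl replicate 3 (-0.18, adjusted p = 0.0265). Thus 1 of 9 genes was higher and 2 were lower, where 29.6% of all genes were called (12.7% higher, 16.9% lower), and 0.586% were called with at least a 2-fold change.

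With NH4Cl in place of glutamine, in cells with glucose, all 9 genes differed, 5 higher and 4 lower with NH4Cl, where 64.6% of all genes were called (31.2% higher, 33.4% lower). SAT1 (0.99 ± 0.043) and SMOX (1.00 ± 0.067) were higher with NH4Cl, as were ODC1 (0.38 ± 0.022) and AZIN1 (0.31 ± 0.02). AMD1 (-0.88 ± 0.033) and SRM (-0.84 ± 0.037) were lower. SMS (-0.11), OAZ1 (0.08) and OAZ2 (-0.11) differed by less, and none of these was called against a 1.2-fold change. OAZ1 did not pass without replicate 3 of both nutrients (0.05, adjusted p = 0.0689). OAZ2 did not pass by DESeq2 (-0.09, adjusted p = 0.0951), without a filter on low counts (-0.09, adjusted p = 0.126) or without NH4Cl replicate 1 (-0.07, adjusted p = 0.13). The comparisons with glutamine and with NH4Cl share the 3 glucose libraries, and side by side ODC1 changed by -0.71 and -0.33, AMD1 by 0.92 and 0.03, SRM by 0.80 and -0.05, SAT1 by -1.01 and -0.02, and SMOX by -1.13 and -0.12.

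With glucose added to cells that have glutamine, the RNAs of the catabolic genes fell most. SAT1 fell from 93.5 ± 0.515 to 35.7 ± 0.882 CPM (-1.39 ± 0.04) and SMOX from 36.8 ± 0.848 to 15.2 ± 1.27 CPM (-1.28 ± 0.064). Among synthesis genes AMD1 rose from 87.3 ± 5.53 to 141 ± 1.02 CPM (0.69 ± 0.032), while ODC1 (-0.68 ± 0.021), SRM (-0.50 ± 0.032) and SMS (-0.23 ± 0.021, not called against a 1.2-fold change) fell. OAZ2 (0.53 ± 0.04) and AZIN1 (0.37 ± 0.021) rose together. OAZ1 changed by -0.06 ± 0.022 (adjusted p = 0.0136), which did not pass without glutamine replicate 2 or without replicate 3 of both nutrients (adjusted p = 0.0628 and 0.232) and took the other sign under library totals alone (0.04). By edgeR 3 of the 9 genes were higher and 6 lower, where 65.6% of all genes were called (32.6% higher, 33% lower). At least a 2-fold change, as in SAT1 and SMOX, was called for 10.2% of all genes. Library totals alone gave 6764 genes higher and 4359 lower in place of 5502 and 5571. SRM rose when glutamine was added to glucose and fell when glucose was added to glutamine, whereas AMD1 rose and ODC1, SAT1 and SMOX fell in both cases.

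**Figure D2:**
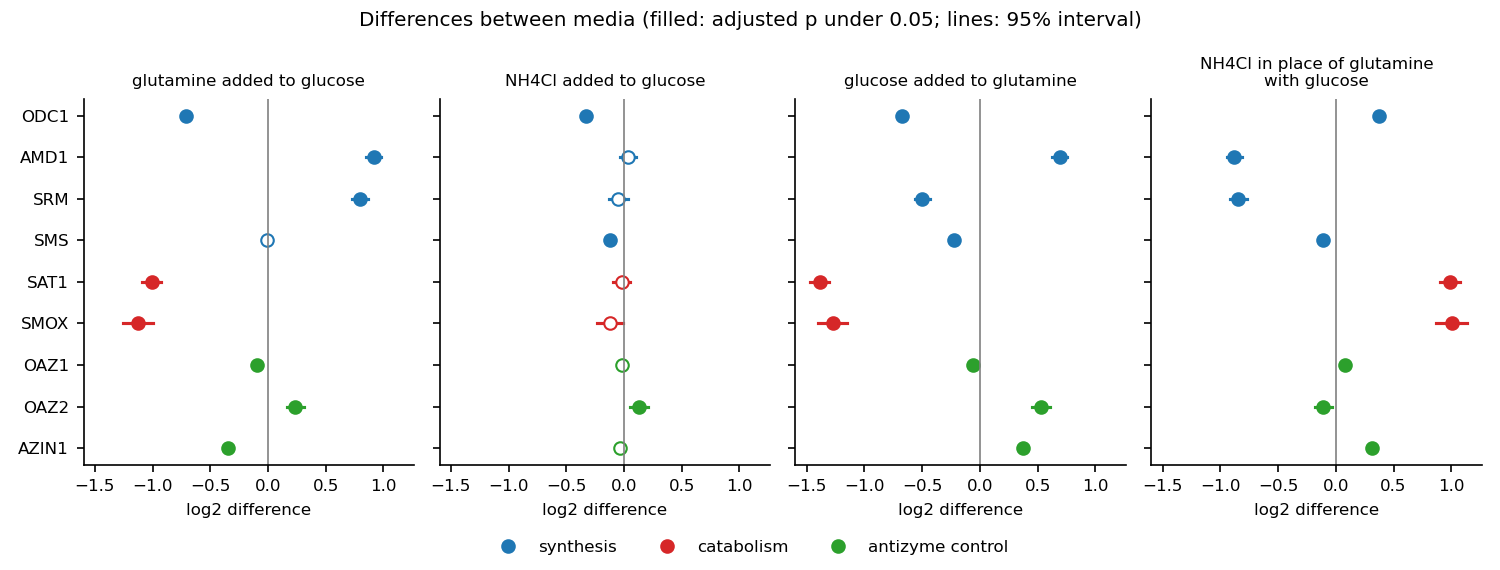
Log2 differences of the 9 genes (horizontal axes) in 4 comparisons, with 95% intervals as lines and filled points where edgeR's adjusted p was under 0.05. Glutamine and glucose each lowered SAT1, SMOX and ODC1 and raised AMD1 when added to the other, while with NH4Cl added to glucose the called genes were ODC1, SMS and OAZ2.

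Set against the medium with neither nutrient, with TMM scaling, most members were lower wherever a nutrient was present. With glucose alone 8 of 9 genes were lower and SMOX was higher (0.37 ± 0.063), led by SRM (-1.95 ± 0.034) and SMS (-0.99 ± 0.021), where 37.9% of all genes were lower, 39.9% higher and 77.8% called in all. The calls of AMD1 (-0.20), SAT1 (-0.11) and OAZ2 (-0.31) were lost against a 1.2-fold change, and that of SAT1 also without glucose replicate 1 (-0.08, adjusted p = 0.0939). With glutamine alone 6 were lower, led by AZIN1 (-1.21 ± 0.021) and SMS (-0.77 ± 0.02), and SAT1 (0.27 ± 0.037) and SMOX (0.52 ± 0.061) were higher, SAT1 not against a 1.2-fold change. AMD1 did not pass there (0.03, 95% interval -0.04 to 0.10), and of all genes 35.8% were lower, 37% higher and 72.8% called. With both nutrients AMD1 was higher (0.72 ± 0.033) and 7 genes were lower, led by ODC1 (-1.16 ± 0.021), SRM (-1.15 ± 0.031) and SAT1 (-1.12 ± 0.044), where 35.3% of all genes were lower, 37% higher and 72.3% called. OAZ2 did not pass (-0.07), although it did with DESeq2 size factors and by DESeq2 (-0.11 in each, adjusted p = 0.00861 and 0.0294).

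The sizes and, for some genes, the directions of these differences depend on the scaling, because the medium with neither nutrient had another composition. With library totals alone the median log2 difference over the tested genes was higher by 0.436 in the comparison of glucose, by 0.343 in that of glutamine and by 0.443 in that of both nutrients, and the members moved with it. For glucose, ODC1 was then at -0.01 (adjusted p = 0.476) and AMD1 (0.24), SAT1 (0.33) and OAZ2 (0.12) changed sign, so that 4 genes were higher and 4 lower. The split of all genes moved as well, to 10145 higher and 3533 lower from 6735 and 6401. SRM (-1.52), SMS (-0.55), OAZ1 (-0.15), AZIN1 (-0.06) and SMOX (0.80) kept their signs. For glutamine, AMD1 then passed (0.37), and all other signs were kept, AZIN1 being at -0.87, with 9531 genes higher and 3312 lower in place of 6251 and 6048. For both nutrients OAZ2 was then higher (0.37), the other 8 kept their signs, and 10866 genes were higher and 2405 lower in place of 6245 and 5964.

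**Figure D3:**
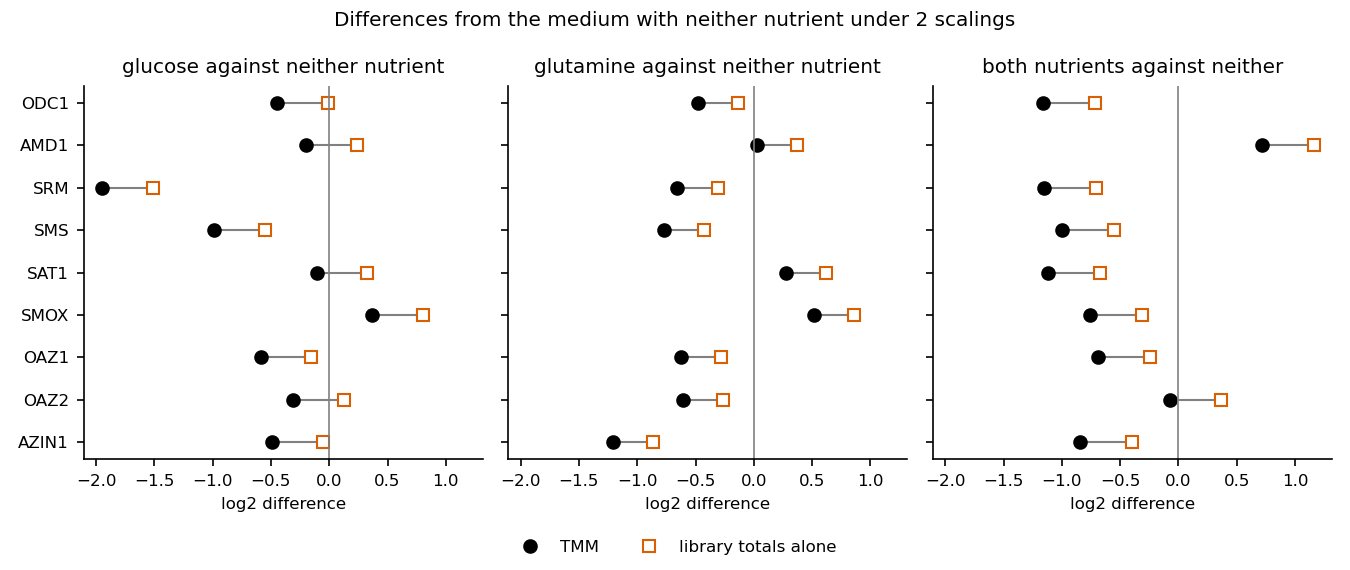
Log2 differences of the 9 genes from the medium with neither nutrient (horizontal axes), with TMM scaling as filled circles and with library totals alone as open squares. For glucose alone AMD1, SAT1 and OAZ2 lie on opposite sides of 0 under these scalings, and SRM lies at -1.95 and -1.52.

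The 4 media of glucose and glutamine also allow a test of whether the effect of one nutrient depends on the other. All 9 genes passed this interaction, 6 higher and 3 lower, where 74.8% of all genes were called (36.8% higher, 38% lower). ODC1, SAT1 and SMOX were lower with both nutrients than the sum of the separate log2 effects, SMOX by 1.64 ± 0.09 and SAT1 by 1.28 ± 0.056, while the interaction of ODC1 was -0.22 ± 0.03 and was not called against a 1.2-fold change. The other 6 were higher than that sum, led by SRM (1.45 ± 0.047), AMD1 (0.89 ± 0.049) and AZIN1 (0.86 ± 0.029). For SAT1, the change with glutamine was 0.27 without glucose and -1.01 with it. SRM differed in the opposite way, with glutamine giving -0.66 without glucose and 0.80 with it. The signs of all 9 interactions held under library totals alone, where ODC1 was at -0.56 and OAZ1 at 0.19, while the median of all genes moved by -0.336 and 4324 genes were higher and 8497 lower in place of 6214 and 6421.

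Ratios within a library do not depend on the scaling and set the arms of the pathway beside each other. They are given in CPM, with no correction for exon length, as a description, with no test. Sums weigh the abundant genes most. With both nutrients ODC1 and SMS were at 323 and 409 CPM, and AMD1 and SRM at 141 and 100 CPM. ODC1 made up 32.7 to 33.7% of summed synthesis with both nutrients, 38.9 to 39.2% with neither and 42.1 to 49.4% elsewhere. The summed synthesis genes stood at 18.4 to 20.5 times the summed catabolic genes with both nutrients and at 17.1 to 18.6 times with neither. In the other media this ratio was 8.96 to 10.5, so the extreme media were alike in it and apart from the rest. With TMM scaling they differed in the sums: summed synthesis was at 1841 to 1849 CPM with neither nutrient and at 955.3 to 995.1 CPM with both, and summed catabolism at 99.1 to 108 CPM and 48.6 to 52.8 CPM. In the other media summed synthesis was at 927.3 to 1238 CPM and summed catabolism at 99.5 to 131.4 CPM. Unlike the ratios, these sums depend on the scaling, above all with neither nutrient. AMD1 stood at 0.424 to 0.445 of ODC1 with both nutrients and at 0.117 to 0.186 elsewhere. ODC1 stood at 0.832 to 0.856 of OAZ1 with both nutrients, at 1.01 to 1.07 with glucose and NH4Cl, and at 1.14 to 1.35 in the remaining media. AZIN1 stood at 0.77 to 0.796 of summed OAZ1 and OAZ2 with glutamine alone, at 0.965 to 1.05 with both nutrients and at 1.12 to 1.25 in the media without glutamine. The libraries with glutamine therefore had less AZIN1 RNA per antizyme RNA than those without it, with no overlap.

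**Figure D4:**
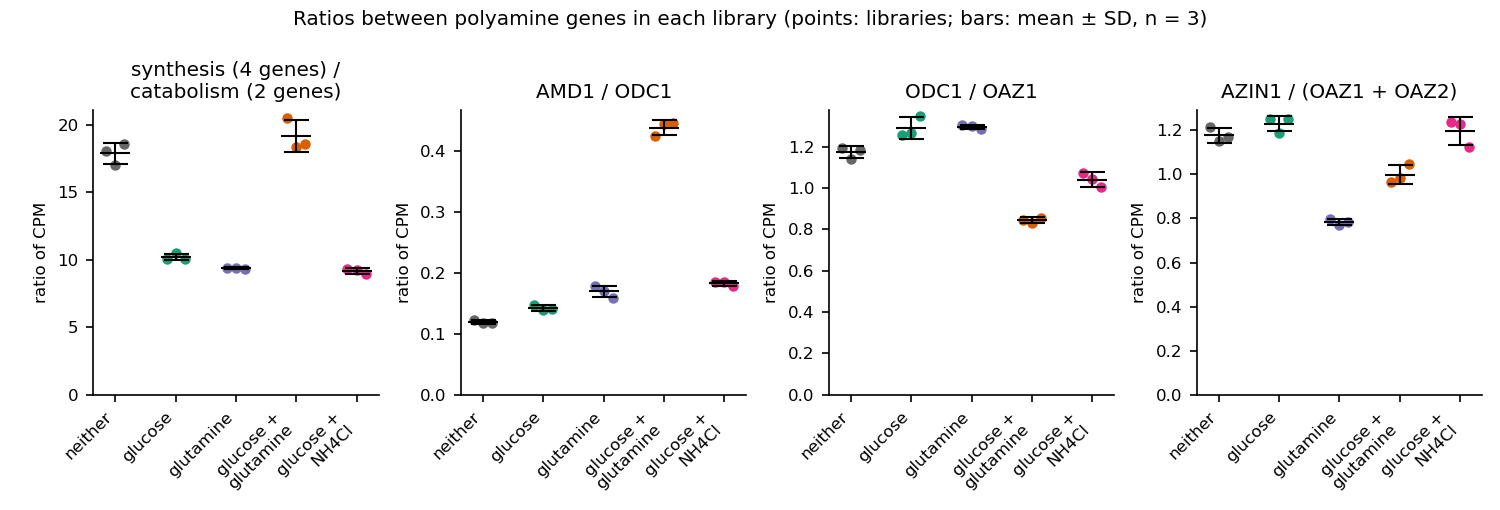
Ratios of CPM between polyamine genes (vertical axes, from 0) in each library by medium, with points for libraries and bars for the mean ± SD of 3. Synthesis over catabolism is highest with both nutrients and with neither, and the lowest ODC1 over OAZ1 and the highest AMD1 over ODC1 are both seen with both nutrients.

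Genes around the pathway were described from fixed lists. With NH4Cl added to glucose, SAT2, AZIN2 and MYC were the genes of these lists that passed the 1.2-fold test. The shares of all genes called, against which the counts of each list are to be read, were 67.9% with glutamine added to glucose (34.2% higher, 33.7% lower), 29.6% with NH4Cl (12.7% and 16.9%) and 65.6% with glucose added to glutamine (32.6% and 33%). Among the 8 genes of the methionine cycle and salvage, which supply S-adenosylmethionine and recycle the by-product of spermidine and spermine synthesis, 5 rose and 2 fell with glutamine added to glucose (median 0.35; 67.9% of all genes called). MAT2A, which makes S-adenosylmethionine, rose from 146.3 ± 3 to 294 ± 1.32 CPM (1.01 ± 0.028), as did MTAP, the methylthioadenosine phosphorylase gene (0.45), and ADI1 (0.55), both of the salvage route. ENOPH1 of the same route fell (-0.54), and so did MAT2B (-0.07), a call lost under several alternatives. With NH4Cl, 3 of the 8 rose and 0 fell (median 0.11), led by MAT2A (0.32), ADI1 (0.15) and APIP (0.18), the call of APIP being lost without glucose replicate 1 or NH4Cl replicate 3. With glucose added to glutamine 5 rose, led by MAT2A (1.04), and 3 fell, among them AHCY (-0.40), which clears S-adenosylhomocysteine. MRI1 also rose and ENOPH1 also fell, by 0.55 to 0.69 and by -0.63 to -0.60 with single libraries left out. Of these calls APIP (0.12) was lost by DESeq2 (adjusted p = 0.12), with its size factors (adjusted p = 0.059), with no filter, against a 1.2-fold change and with most single libraries of the compared media left out (adjusted p = 0.336 without glutamine replicate 2). MTAP (0.13) and ADI1 (0.11) were lost with no filter and against a 1.2-fold change, and MAT2B (-0.16) under library totals alone (adjusted p = 0.122) and against a 1.2-fold change.

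Of 8 genes linked to polyamine transport 6 were measured, and with glutamine added to glucose 4 rose and 2 fell (median 0.54), all 6 called where 67.9% of all genes were. ATP13A2, a lysosomal polyamine exporter, rose from 30.4 to 53.4 CPM (0.81 ± 0.05), and GPC1 (0.65) and SLC47A1 (0.86) rose. ATP13A3, which takes part in polyamine uptake, fell from 451 ± 4.67 to 305 ± 7.07 CPM (-0.57 ± 0.023), and SLC3A2, better known as the heavy chain of amino acid transporters, fell from 644 ± 7.62 to 119 ± 1.58 CPM (-2.44 ± 0.023). With NH4Cl, GPC1 rose (0.23) and SLC3A2 (-0.31) and ATP13A3 (-0.09) fell, and ATP13A3 did not pass without a filter on low counts. With neither nutrient ATP13A3 was at only 194 ± 6.67 CPM, the lowest of the 5 media.

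Of the other polyamine enzyme and antizyme genes 6 of 7 were measured, and 3 rose and 1 fell with glutamine added to glucose (median 0.28), a share of calls near the 67.9% of all genes. One of the 3, OAZ3 (0.76), did not pass without replicate 1 of both nutrients (0.53, adjusted p = 0.111). SAT2, a relative of SAT1, fell from 32.6 ± 1.06 to 20.3 ± 1.09 CPM (-0.68 ± 0.059) as SAT1 did. With NH4Cl, however, SAT2 rose to 44.7 ± 0.707 CPM (0.45 ± 0.052), where SAT1 did not pass. AZIN2, the second inhibitor gene, rose from 6.2 ± 0.714 to 10.2 ± 0.385 CPM with glutamine (0.71 ± 0.111), in the opposite direction to AZIN1, and to 9.17 ± 0.602 CPM with NH4Cl (0.56 ± 0.114). PAOX, which oxidises acetylated polyamines, did not pass in either comparison (0.12 and 0.32). ARG1, an arginase gene, had at most 5 counts in a library and was not tested, and the other arginase gene, ARG2, rose slightly with glutamine, to 7.6 CPM from 6.15 CPM (0.30), a call lost by DESeq2 (adjusted p = 0.0533) and without glucose replicate 1 or replicate 1 of both nutrients (adjusted p = 0.0533 and 0.0611).

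Spermidine is also the donor for hypusine, a modified residue of EIF5A that DHPS and DOHH build. With glutamine added to glucose EIF5A rose from 545 ± 6.41 to 675 ± 6.65 CPM (0.31 ± 0.019), while EIF5A2 (-0.30), DHPS (-0.18) and DOHH (-0.34) fell, so 1 of 4 genes rose and 3 fell (median -0.24), where 34.2% of all genes were higher and 33.7% lower. EIF5A2 (adjusted p = 0.196) and DHPS (adjusted p = 1) were not called against a 1.2-fold change. EIF5A was at 1272 ± 32.1 CPM with neither nutrient, more than in any other medium, and its counts are uncertain because near-identical copies exist. With NH4Cl, EIF5A (-0.07) and DOHH (-0.19) fell and the other 2 did not pass. The call of EIF5A was lost without a filter on low counts and without NH4Cl replicate 1.

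Of 8 MYC network genes 1 rose and 6 fell with glutamine added to glucose (median -0.33), where 34.2% of all genes were higher and 33.7% lower. Of the 6, MAX (-0.16) and MGA (-0.22) were not called against a 1.2-fold change. MYC RNA was at 480 ± 6.58 CPM with neither nutrient, 313 ± 6.81 CPM with glucose, 241 ± 1.56 CPM with glutamine, 224 ± 3.01 CPM with glucose and NH4Cl, and 182 ± 4.31 CPM with both nutrients. ODC1 had the same highest and lowest media, as did OAZ1, whose window held no E-box, and MXD1 of this list (105 and 12.4 CPM). How many of all genes share them was not counted. Between glucose alone and glutamine alone, at 526 and 515 CPM, ODC1 did not differ by the test, where MYC was at 313 and 241 CPM. MYC fell with glutamine added to glucose (-0.78 ± 0.025), with NH4Cl (-0.48 ± 0.024) and with glucose added to glutamine (-0.41 ± 0.025), as ODC1 did in each. SRM, the other gene with an E-box in its window, rose with glutamine added to glucose (0.80) and did not pass with NH4Cl (-0.05). It fell with glucose added to glutamine (-0.50). A part of MYC in the levels of either gene was not tested. MXD1, which competes with MYC for MAX, fell from 50.2 ± 2.49 to 12.4 ± 0.285 CPM with glutamine (-2.02 ± 0.059). MXI1 fell as well (-0.79), and MXD3 rose (0.59). With NH4Cl 3 of the 8 rose, among them MNT (0.30) and MXD4 (0.24), and 3 fell.

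For each member, the genes of most similar pattern were found among 10505 protein-coding genes that averaged 5 CPM or more, by the root mean square difference of centred log2 CPM over the 5 media. DDX21, a nucleolar RNA helicase gene, was nearest to ODC1 at 0.0297, and EXOSC5 (0.0632) and CMSS1 (0.0639) followed. EIF3J (0.0267), NOL10 (0.032) and the chaperonin gene CCT4 (0.036) were nearest to SMS, and SF3B6 (0.0211) to OAZ1. SSSCA1 (0.06) and MRPL12 (0.0815) were nearest to SRM, and IL4R (0.0415) to AMD1. CCNB1IP1 (0.0494), NOB1 (0.0587) and RSL24D1 (0.0641) were nearest to SAT1. ADPRM (0.0959) was nearest to SMOX, S1PR1 (0.0436) to OAZ2 and SAP30 (0.0621) to AZIN1. Over only 5 media a close match among so many genes may be common, and this was not tested. Within the list SAT1 and SMOX were the closest pair, at 0.16, and SRM and SMOX the farthest apart, at 0.94.

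Few counts were assigned to the named copies and to the neighbours of these genes. Processed pseudogenes named after AMD1, SRM, SMS and OAZ1 had at most 4 counts in a library, where no member had fewer than 245. The search was by symbol and found none for the other members. If reads with several matches were dropped, such low counts cannot show whether reads of a member were lost. The exons of OAZ1 overlap those of JSRP1 (at most 9 counts) and AC005258.1 (0 counts), those of OAZ2 overlap AC100830.3 (0 counts), and those of AZIN1 overlap AZIN1-AS1 (18 to 56 counts), whose reads cannot be told apart from AZIN1 if the counting ignored strand. Counts are from whole cultures, so fewer cells of a kind and less RNA per cell cannot be told apart.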

How the data were processed

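Raw counts per Ensembl gene were deposited as 1 table with a column per library, which the description labels tie to the samples. Per the submitters' processing notes, which give no roles, HISAT2 2.1.0, Subread 1.5.1, featureCounts and the build GRCh38.p12 were used. The sources used here do not give how strand and reads with several matches were treated. Names and positions came from GENCODE 29 (58275 of 58395 IDs). All 15 libraries entered 1 edgeR 4.0.16 fit (R 4.3.3) after filterByExpr and TMM scaling, with a mean per medium. Its two-sided quasi-likelihood test gave p-values adjusted by Benjamini-Hochberg over 16889 genes, called under 0.05, and SE is the log2 change over the root of F. These steps were also run on simulated data in which few genes changed and the media had nearly the same composition. Such data could not test the scaling. Every member had at least 245 counts in each library. Members were named in every comparison. From the wider lists up to 3 genes per direction were to be named by smallest p, but not all of these were named. Others were named because their calls were lost under an alternative, and PAOX, ARG1 and ARG2 were added after their values were seen. Members and lists were chosen with earlier results of these data known. Libraries were not treated as pairs: no label ties replicate numbers across media, and the median residual correlation was -0.00142 for equal numbers and 0.00425 for different ones. Alternatives were library totals alone, the size factors of DESeq2, no filter, a minimum of 1 CPM in 3 libraries, DESeq2 1.42.0, the compared media alone, a replicate block, a test against a 1.2-fold change, and leaving out each library.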

Additional observations from a re-analysis of the deposited data

Results flagged for a closer look

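All 9 genes had an effect of glutamine that differed between cells with and without glucose, by the interaction test of edgeR. The log2 interactions were -0.22 for ODC1, 0.89 for AMD1, 1.45 for SRM, 0.76 for SMS, -1.28 for SAT1, -1.64 for SMOX, 0.53 for OAZ1, 0.84 for OAZ2 and 0.86 for AZIN1. The largest adjusted p among them was 4.71e-12, for ODC1. Of all genes 74.8% were called, so such a call is common in these data. Media had 3 libraries each, too few to look for a library far from the others.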

How the results depend on the processing

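Of 2277 values of the 9 genes under alternatives, over 11 comparisons, 2213 kept their direction and side of the threshold, 38 were no longer called and 9 became called. Another 9 changed sign while staying uncalled, all within 0.0144 of 0: SMS for glutamine added to glucose, SAT1 and OAZ1 for NH4Cl added to glucose, AMD1 for glutamine against neither nutrient and OAZ1 for glucose with NH4Cl against glutamine, 7 with a library left out and 2 with no filter. The other 8 changed sign with a call in at least 1 of the fits compared, each with library totals alone: OAZ1 for glucose added to glutamine (0.0389), AMD1 (0.24), SAT1 (0.33) and OAZ2 (0.12) for glucose against neither nutrient, OAZ2 for both nutrients against neither (0.37), and AMD1 (0.28), SAT1 (0.32) and OAZ2 (0.26) for glucose with NH4Cl against neither nutrient. That scaling gave 4 members higher and 4 lower for glucose and 2 higher for both nutrients. Against a 1.2-fold change 7417 genes passed for glutamine added to glucose, 444 for NH4Cl (0 members higher, 1 lower), 6416 for NH4Cl in place of glutamine (2 members lower) and 6485 for glucose added to glutamine. By that test the calls of AMD1, SAT1 and OAZ2 were lost with glucose and that of SAT1 with glutamine, each against neither nutrient. With single libraries left out, 0 to 1 members were higher and 2 to 3 lower with NH4Cl. With a replicate block 11450 genes were called for glutamine added to glucose and 4953 for NH4Cl, and no member's call changed. Equal replicate numbers did not correlate (5 of 15 libraries were closest to their own number). Depth was not limiting for the members, but AGMAT, OAZ3 and PAOX had at most 21, 42 and 95 counts.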
